A study of Rattus norvegicus with 52 samples.

Results

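Fc receptors and their signalling partners were examined in single cells cut from arterial aneurysms of rats. The 6 genes were chosen by name as a receptor and adaptor set and all 6 of them had a row among the 22081 genes of the count table. They comprise 3 receptors for the constant part of IgG (Fcgr1a, Fcgr2b and Fcgr3a), the adaptors Fcer1g and Tyrobp, and the kinase Syk. All 52 cells belonged to 1 group of male Sprague Dawley rats, 7 weeks old, so no untreated or control artery was compared. In these animals the left common carotid had been cut and sewn end-to-side onto the right one, which makes a new bifurcation. Ligation of the left renal artery and chow with 8% sodium chloride raised the blood volume, and the chow also carried 3-aminopropionitrile at 0.12%, which blocks lysyl oxidase and so weakens the arterial wall. Nanoparticles with the red dye DiI, taken up by phagocytes, had been injected 3 days before labelled cells were cut out one by one with a laser, 5 from rat 1, 23 from rat 2 and 24 from rat 3. The labels call the cells macrophages and give uptake of the dye as what marked them.

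Fc gamma receptors bind IgG on opsonised particles and immune complexes. The activating receptors Fcgr1a and Fcgr3a carry no signalling motif of their own and pair with Fcer1g, the common gamma chain, whose cytoplasmic tail holds an immunoreceptor tyrosine-based activation motif (ITAM). Tyrobp, also called DAP12, is an adaptor with the same kind of motif that serves other receptors of myeloid and NK cells. Src-family kinases phosphorylate the ITAM, Syk docks on it, and Syk then drives phagocytosis and cytokine production. Fcgr2b is the inhibitory member and recruits phosphatases instead. In macrophages of other tissues Fcer1g and Tyrobp are usually among the readily found transcripts.

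Per-cell totals spanned 1538 to 84848 counts, and the medians were 18261 in rat 1, 11390 in rat 2 and 21841 in rat 3. Genes with a count numbered 2623, 1486 and 3506 by median in the same order. No pair of columns was identical. Across the 52 cells, the median of the 20 measured macrophage markers was 6 cells with a count, against 4 cells for a gene of the table at large. At least 10 cells held a count for 4 of the 20 (20%), against 20.7% of all genes. In at least 1 cell 5 counts were reached by 18 of the 20 (90%), against 27.4% of all genes. Among the markers Mrc1, which binds mannose, had counts in 33 cells, Cybb and Spi1 in 16 each, Csf1r in 12, Cd68 in 6 and Cd14 in 1. At least 1 macrophage marker reached 5 counts in 20 of the 52 cells, and 3 or more markers did so in 6, so the label was not borne by strong marker counts in most cells. A gene counts as found in a cell at 1 or more counts. Intervals treat each count or each cell as an independent draw. Molecules carry no identifiers in these libraries, so copies of 1 molecule may be counted more than once and the Poisson intervals may be too narrow. The binomial intervals pool the cells of 3 rats, and neither kind covers the spread between rats. Cells of 1 rat share their source, so the rat was the replicate (n = 3).

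Fcgr3a and Syk were found in most cells, and the other 4 genes in few. Of 52 cells, 35 had Fcgr3a (67.3%, with an exact binomial 95% interval of 52.9 to 79.7) and 33 had Syk (63.5%, interval 49.0 to 76.4). Fcgr2b and Tyrobp were each found in 8 cells (15.4%, interval 6.88 to 28.1). Fcgr1a and Fcer1g were each found in 6 (11.5%, interval 4.35 to 23.4). At least 33 cells held a count for 2.35% of all genes in the table, and at least 5 cells for 43%. Thus 2 of the 6 genes reached the first mark and all 6 reached the other. Counts were not divided by transcript length, so the order of the genes by detection is not an order of transcript number, and the part of length in it was not tested.

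**Figure D1:**
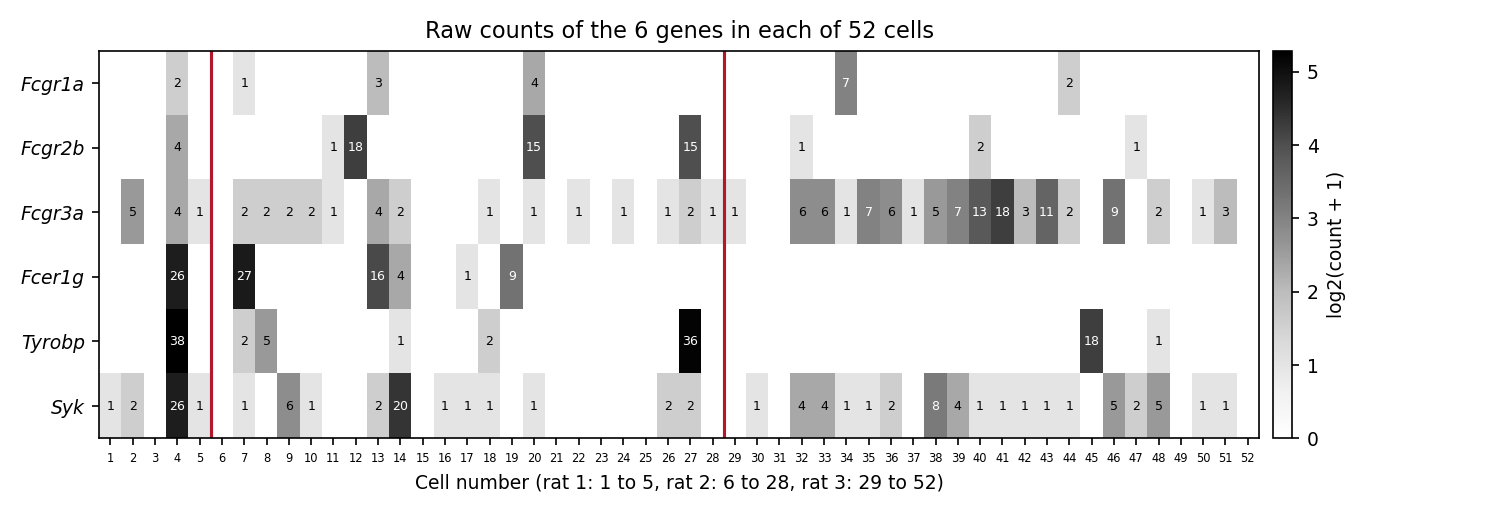
Raw counts of Fcgr1a, Fcgr2b, Fcgr3a, Fcer1g, Tyrobp and Syk (rows) in each of the 52 cells (columns, cell number); shading is log2(count + 1), the printed digit is the count and red lines separate the rats. Fcgr3a and Syk have counts in 35 and 33 cells, while Fcer1g and Tyrobp appear in 6 and 8 scattered cells.

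The Fcgr3a row, by its name the low-affinity activating receptor known as CD16, was widespread but shallow. In rat 1 it had 5, 4 and 1 counts in cells 2, 4 and 5 and 0 in the remaining cells. In rat 2 it was found in 14 of 23 cells and never exceeded 4 counts. In rat 3 it was found in 18 of 24 cells, with up to 18 counts in cell 41, 13 in cell 40 and 11 in cell 43. Of the 35 cells with Fcgr3a, 12 had a single count and 11 had 5 or more, and 10 of those 11 came from rat 3. Summed over cells, Fcgr3a stood at 84.1 CPM (counts scaled to a library of 1000000) in rat 1 (exact Poisson interval 40.3 to 155), 86.0 in rat 2 (54.5 to 129) and 161 in rat 3 (132 to 196). On the log2(CPM + 1) scale its level was 4.56 ± 0.81 (SD, n = 3 rats).

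The window around the annotated start of Fcgr3a is shown because this is the Fc receptor row with counts in most cells, beside that of Syk, the other gene found in most cells. These were the 2 of the 6 genes with an entry in the RefSeq promoter table (build GRCr8), which gives 250 bases before and 50 after a start. The Syk window belongs to a start inside the outer limits of the gene. The Fcgr3a window is that of the gene RefSeq now calls Fcgr3a. Whether the count row of that name stands for the same gene is not known, as set out below. Capitals mark GGAA, the core bound by ETS-family factors such as Spi1 (PU.1), on either strand.
Fcgr3a, chr13:85782386-85782685, + strand: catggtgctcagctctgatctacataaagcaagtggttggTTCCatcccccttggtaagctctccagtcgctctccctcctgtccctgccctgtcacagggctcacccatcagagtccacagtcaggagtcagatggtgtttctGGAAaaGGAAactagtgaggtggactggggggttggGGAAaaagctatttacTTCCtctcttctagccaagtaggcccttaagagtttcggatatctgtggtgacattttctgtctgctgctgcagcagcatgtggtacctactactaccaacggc
Syk, chr17:12813224-12813523, - strand: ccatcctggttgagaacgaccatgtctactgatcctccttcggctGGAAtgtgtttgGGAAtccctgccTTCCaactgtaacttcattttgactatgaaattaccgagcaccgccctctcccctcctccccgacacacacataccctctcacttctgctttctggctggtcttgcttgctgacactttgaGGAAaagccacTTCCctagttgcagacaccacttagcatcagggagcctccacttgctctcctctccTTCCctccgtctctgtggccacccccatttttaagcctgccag
GGAA occurred 5 times in the Fcgr3a window and 6 times in the Syk window, and at least once in 95.8% of 33469 promoter windows of the same length. The longer PU.1-type string GAGGAAGT, which contains GGAA, occurred once in the Fcgr3a window, on the opposite strand with its outer base 56 bases before the start. It was not present in the Syk window, and 2.42% of all windows held it on either strand. These are matches of letters only. Spi1, the myeloid factor that binds such strings, was found in 16 cells, of which 14 also had Fcgr3a. Of the 36 cells without Spi1, 21 had Fcgr3a. Cells with Spi1 held a median of 3232.5 genes and those without it 2209. A part of Spi1 in the Fcgr3a counts was not tested.

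Fcgr1a, the high-affinity IgG receptor, was found in 1 cell of rat 1 (2 counts), 3 of rat 2 (1, 3 and 4 counts) and 2 of rat 3 (7 and 2 counts). All 6 of these cells also had Fcgr3a and Syk, and their library totals were 19309 counts or more. Fcgr2b, the inhibitory receptor, reached 18, 15 and 15 counts in cells 12, 20 and 27 of rat 2 and 4 counts in cell 4 of rat 1. Its remaining 4 cells had 1 or 2 counts, so 5 or more counts of Fcgr2b were seen in rat 2 alone among the 3 rats. Cell 12 of rat 2, with the most Fcgr2b, had 0 counts of the other 5 genes.

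The Fcgr3a values depend on a naming question. RefSeq's gene table gives Fcgr3a as an older name of Fcgr2a, an activating receptor, and gives Fcgr4 as an older name of the gene now called Fcgr3a. The count table has rows for both, and which gene model its annotation called Fcgr3a is not given in the sources here. Fcgr2a was found in 5 cells, with 43 counts in cell 45 of rat 3 and 13 in cell 4 of rat 1, and 3 of these 5 cells had an adaptor. Cell 45 of rat 3 had 0 counts of Fcgr3a and 18 of Tyrobp. With the rows pooled, 38 cells had an Fc gamma receptor in place of 37.

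The adaptors were found in few cells, some of them with high counts. Fcer1g had 26 counts in cell 4 of rat 1, and 27, 16, 9, 4 and 1 counts in cells 7, 13, 19, 14 and 17 of rat 2. Rat 3 had Fcer1g in 0 of 24 cells, and a count of 0 there still permits a share of 12.5% of cells with a count. Its summed level was 219 CPM in rat 1 (exact Poisson interval 143 to 321) and 213 CPM in rat 2 (161 to 276), against 0 CPM in rat 3, where 3 counts would give 4.75 CPM. All Fcer1g counts of rat 1 came from cell 4. Rat 3 also had the deepest libraries of the 3 rats by median.

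Tyrobp had 38 counts in cell 4 of rat 1, 36 in cell 27 of rat 2 and 18 in cell 45 of rat 3. The other 5 cells had 5, 2, 2, 1 and 1 counts, 4 of them in rat 2 and 1 in rat 3. Its summed level was 320 CPM in rat 1 (226 to 439), 172 in rat 2 (126 to 229) and 30.1 in rat 3 (18.1 to 47.0). The mean count in a cell that had the gene was 13.8 for Fcer1g and 12.9 for Tyrobp, against 3.86 for Fcgr3a and 3.39 for Syk, and the medians were 12.5, 3.5, 2 and 1. The Tyrobp levels rested on 1 cell in each rat: without cell 4 of rat 1, cell 27 of rat 2 and cell 45 of rat 3 they were 0, 39.6 and 1.64 CPM. Without its cell of most counts, Fcer1g was at 0 CPM in rat 1 and 121 in rat 2.

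Syk was found in 4 of 5 cells of rat 1, 11 of 23 of rat 2 and 18 of 24 of rat 3. Of its 33 cells, 18 had a single count and 6 had 5 or more. The most were 26 counts in cell 4 of rat 1 and 20 in cell 14 of rat 2, cells that also had both adaptors. Rat 3 reached 8 counts, in cell 38, which had no adaptor count. Summed levels were 252 CPM in rat 1 (170 to 360), 142 in rat 2 (101 to 195) and 69.6 in rat 3 (50.6 to 93.5). Single cells carried the higher values: without the cell with the most Syk in each rat, the levels were 48.4, 70.6 and 63.1 CPM.

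**Figure D2:**
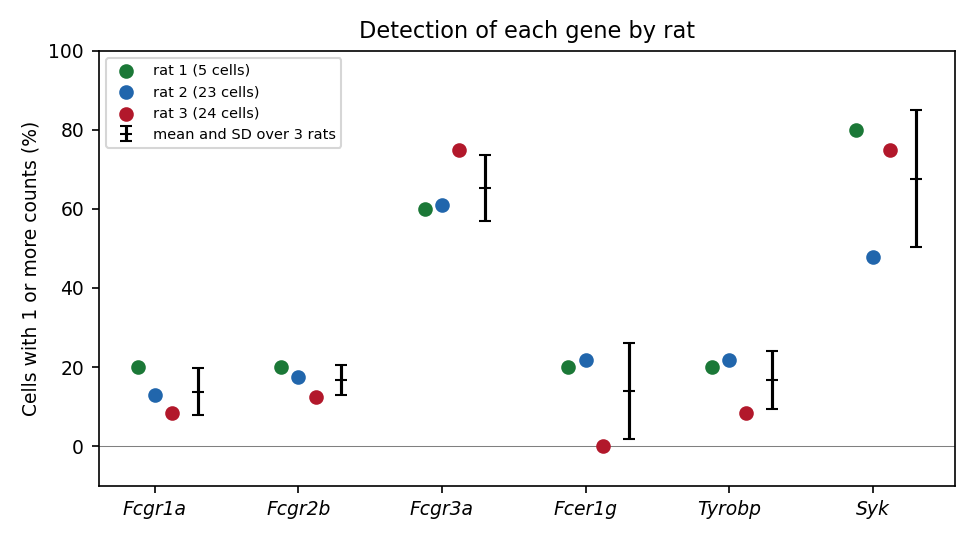
Percent of cells with 1 or more counts of each gene (y axis) in rat 1 (5 cells), rat 2 (23 cells) and rat 3 (24 cells), with the mean and SD over the 3 rats in black. Fcgr3a stands at 60, 60.9 and 75% in rats 1, 2 and 3, and Fcer1g at 20, 21.7 and 0%.

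Because activating receptors need an adaptor at the membrane, detection of each receptor was set against that of each adaptor within rats. Fcgr3a was found in 65.3% ± 8.42 of cells, Fcer1g in 13.9% ± 12.1 and Tyrobp in 16.7% ± 7.29 (SD, n = 3 rats). The Fcgr3a minus Fcer1g difference was 51.4 ± 20.5 percentage points, higher in 3 of 3 rats (2-sided exact sign-flip permutation test, p = 0.25, adjusted p = 0.75 over 6 pairs). The Fcgr3a minus Tyrobp difference was 48.6 ± 15.7 points, higher in 3 of 3 rats (exact p = 0.25, adjusted p = 0.75). With 3 rats 0.25 is the smallest p this test can give. Fcgr1a and Fcgr2b differed from either adaptor by -2.90 to 2.72 points on average, with exact p = 1 for all 4 pairs.

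The size of the Fcgr3a lead depended on the count required. At 2 or more counts it was 30.5 points over Fcer1g and 29.1 over Tyrobp. At 5 or more counts it was 9.54 and 9.60 points, with exact p = 1 for each, and the lead rested on rat 3. It was 0 points in rat 1 against either adaptor, and 41.7 over Fcer1g and 37.5 over Tyrobp in rat 3. In rat 2 it turned, since 0 cells had 5 Fcgr3a counts while 3 had as many of Fcer1g and 2 of Tyrobp. Fcgr1a at 5 or more counts was below Fcer1g by a mean of similar size, at -9.63 points (exact p = 0.5). With cells thinned to 10000 counts the leads were 31.7 and 34.9 points, and 0 in rat 1 (exact p = 0.5).

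Most cells with a receptor had no adaptor count. At least 1 of the 3 receptors was found in 37 cells and at least 1 adaptor in 11, and 8 cells had both. Hence 21.6% of receptor cells had an adaptor and 72.7% of adaptor cells had a receptor, while 20% of the 15 cells with no receptor had an adaptor. In rat 1 the overlap was 1 of 3 receptor cells, in rat 2 it was 6 of 15 and in rat 3 it was 1 of 19. Adaptor shares of cells with and without a receptor went opposite ways, at 40% and 25% in rat 2 and 5.26% and 20% in rat 3. Each share of rat 3 rested on 1 adaptor cell and the 25% of rat 2 on 2, too few to tell the rats apart. Fcgr3a, the commonest receptor, met Fcer1g, the chain it signals through, in 4 cells, 1 in rat 1 and 3 in rat 2. It met Tyrobp in 7 cells. Fcgr3a was thus in 66.7% of Fcer1g cells and 87.5% of Tyrobp cells, against 67.3% of all 52 cells. Fcgr1a met Fcer1g in 3 of its 6 cells, and Fcgr2b, which needs no adaptor, met it in 1 of 8.

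**Figure D3:**
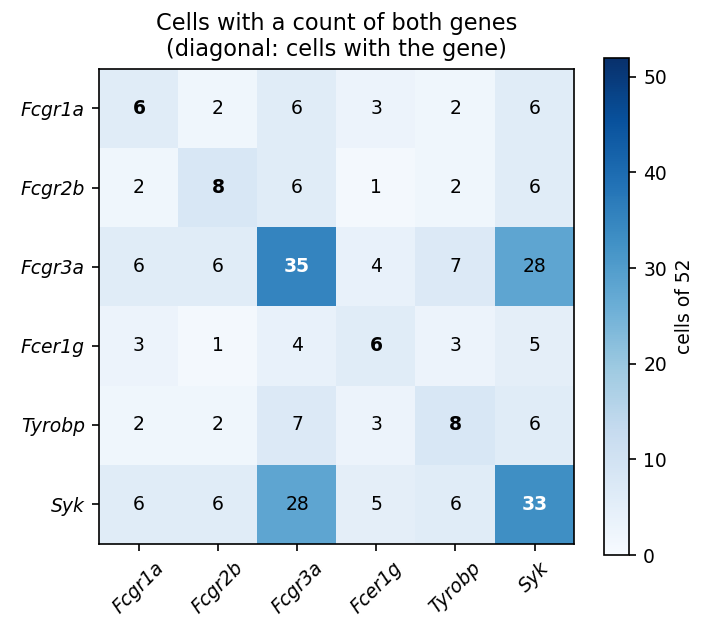
Number of the 52 cells with a count of both the row and the column gene, with the gene's own cells on the diagonal. Fcgr3a and Syk share 28 cells, Fcgr3a and Fcer1g share 4 of the 6 Fcer1g cells, and the adaptors share 3 with each other. Fcgr3a was found in 66.7% of Fcer1g cells and in 67.3% of all 52 cells.

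The cells richest in Fcgr3a had no adaptor count. All 11 cells with 5 or more Fcgr3a counts had 0 of Fcer1g and 0 of Tyrobp, 10 of them in rat 3 and 1 in rat 1. An adaptor was found in 11 of all 52 cells, and in 26.8% of the 41 cells with fewer Fcgr3a counts. In rat 3 an adaptor was found in 2 of 24 cells, or 14.3% of those with fewer Fcgr3a counts. That is too few for a 0 among 10 cells to show a separation. Conversely the 11 cells with an adaptor had 0 to 4 Fcgr3a counts, with a median of 2. The 11 Fcgr3a-rich cells had a median of 28339 counts and 4284 genes, and the 11 adaptor cells 14908 counts and 1918 genes. The Fcgr3a-rich cells were thus the deeper set. Rat 2 held no Fcgr3a-rich cell and rat 3 held 2 adaptor cells, so rat and adaptor detection cannot be told apart over most of this set.

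**Figure D4:**
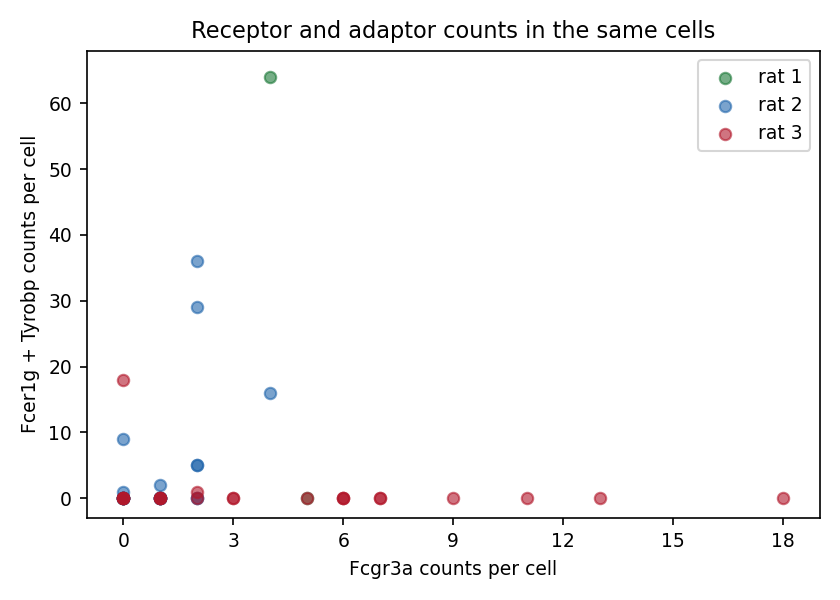
Fcgr3a counts (x axis) against the sum of Fcer1g and Tyrobp counts (y axis), 1 point per cell, coloured by rat; darker points are overlapping cells. Cells with adaptor counts lie at 0 to 4 Fcgr3a counts, and cells with 5 to 18 Fcgr3a counts lie at 0 on the adaptor axis. An adaptor was found in 11 of the 52 cells, and in 2 of the 24 of rat 3.

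The adaptors themselves overlapped in 3 cells, cell 4 of rat 1 and cells 7 and 14 of rat 2. Counts of the pair were 26 and 38, 27 and 2, and 4 and 1, for Fcer1g and Tyrobp in turn. Cell 27 of rat 2 had 36 Tyrobp and 0 Fcer1g counts, and cell 13 of rat 2 had 16 Fcer1g and 0 Tyrobp counts. High counts of 1 adaptor thus came with a 0 of the other in some cells and with high counts of both in cell 4 of rat 1. That cell was the only one of the 52 with all 6 genes, at 2 Fcgr1a, 4 Fcgr2b, 4 Fcgr3a, 26 Fcer1g, 38 Tyrobp and 26 Syk counts.

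Syk, which docks on phosphorylated ITAMs, shared most of its cells with Fcgr3a. Fcgr3a and Syk shared 28 cells, 80% of Fcgr3a cells and 84.8% of Syk cells, and Syk was found in 29.4% of the 17 cells with no Fcgr3a. Of the 11 adaptor cells 8 had Syk, or 72.7%, against 61.0% of the other 41 cells. All 11 Fcgr3a-rich cells had Syk, with 1 to 8 counts. Across 52 cells Pearson's r of the log2(CPM + 1) levels was 0.53 for Fcgr3a with Syk, 0.01 for Fcgr3a with Fcer1g, 0.44 for Fcgr1a with Fcer1g and 0.30 for Fcer1g with Tyrobp, given as a description since cells of a rat share their source and depth. Without cell 4 of rat 1 these were 0.53, -0.02, 0.36 and 0.17. The level of Fcgr3a had an r of 0.49 with the number of genes found in the cell, and Syk 0.39, against -0.09 for Fcer1g and -0.13 for Tyrobp. Cells with Fcgr3a had a median of 3358 genes and those without it 1343, and the same medians for Syk were 3358 and 1497. The part of depth in the sharing of Fcgr3a and Syk was not tested.

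**Figure D5:**
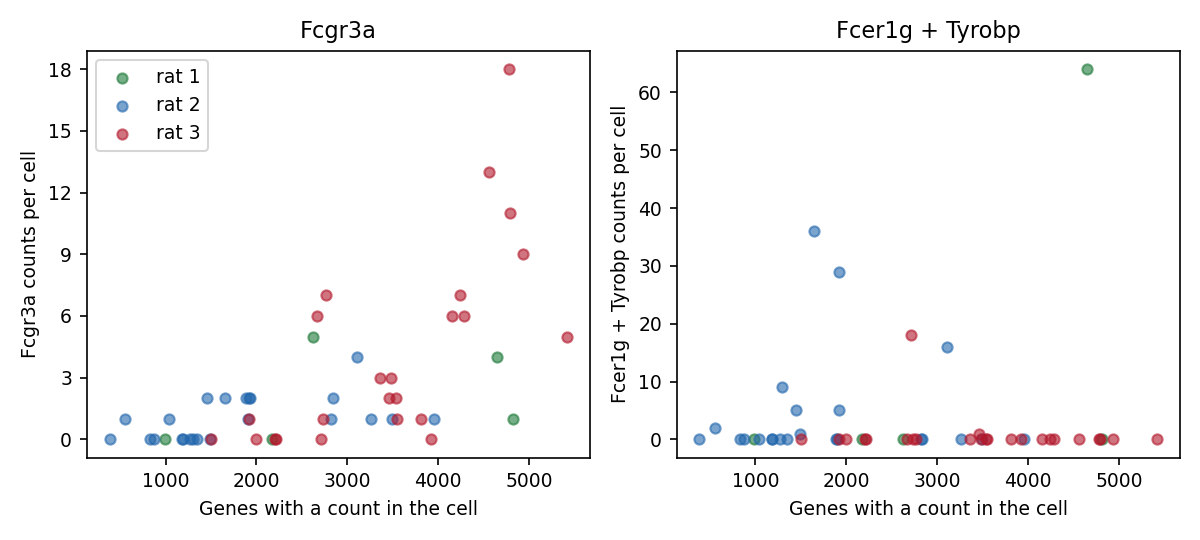
Counts per cell of Fcgr3a (left) and of Fcer1g plus Tyrobp (right) against the number of genes with a count in the same cell, coloured by rat. The 11 cells with 5 or more Fcgr3a counts had 2623 to 5417 genes, and the 11 cells with an adaptor had 552 to 4649.

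Adaptor cells were also read for macrophage markers, which played no part in choosing the 6 genes. At least 1 of 20 macrophage markers reached 5 counts in 8 of the 11 adaptor cells and in 12 of the other 41. Among the 11 Fcgr3a-rich cells it was 5, and the rest of that set had markers below 5 counts. Summed macrophage marker counts ran from 0 to 517 (median 13) in adaptor cells, from 0 to 1560 (median 5) in the others and from 1 to 1560 (median 8) in Fcgr3a-rich cells. Fibroblast marker counts moved alike, with a median of 11 in adaptor cells and 4 in the others, and their part in the result was not tested. Of the 20 markers, Itgam, Adgre1, Ctss and Cd14 (4 of 20) were at 0 in every adaptor cell and 2 in every Fcgr3a-rich cell. Cell 7 of rat 2, with 27 Fcer1g counts, had 95 Cd68 and 252 C1qa counts. Cell 4 of rat 1 had 33 Cd68 and 236 Lyz2 counts. Apoe, the lipid carrier made by macrophages, was found in 9 of 11 adaptor cells, at up to 965 counts, and in 11 of the other 41. Single macrophage markers differed in this: Mrc1 was found in 7 of 11 adaptor cells and 26 of the other 41, and Spi1 in 3 and 13. Cd68 was found in 4 and 2, while Msr1, Lgals3 and Laptm5 were each found in 1 adaptor cell and in 8, 5 and 5 others.

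Marker counts and adaptor counts did not go together in every cell. Cell 39 of rat 3 had the most macrophage marker counts of all, 1560, including 192 of the growth factor receptor Csf1r, with 3411 of Apoe, and it had 7 Fcgr3a, 4 Syk, 0 Fcer1g, 0 Tyrobp and 0 Cd68 counts in a library of 53095. Cell 45 of rat 3 had 18 Tyrobp counts and 1 macrophage marker count beside 130 of Apoe, and it held the most smooth muscle (179) and fibroblast (582) marker counts of the adaptor cells. Single genes gave much of these sums, Myocd 173 of the 179 and Lum 284 of the 582. Cell 45 was not alone in this. Cells 14, 19 and 27 of rat 2 also had more fibroblast (580, 19 and 231) than macrophage (51, 13 and 32) marker counts. Cell 4 of rat 1, cells 7 and 13 of rat 2 and cell 48 of rat 3 had fewer. Their fibroblast counts were 11, 1, 15 and 4, against 467, 517, 59 and 9 of macrophage markers. Cell 18 of rat 2 had 2 Tyrobp counts and no macrophage marker in a library of 1538, the shallowest.

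Fcer1g, Fcgr3a and Tyrobp are also expressed by NK cells, mast cells, neutrophils or platelets, and Fcgr2b and Syk by B cells, so their markers were read in the same cells. Summed NK marker counts ran from 0 to 13 in adaptor cells and from 0 to 35 in the others, with 5 of 12 measured markers at 0 in every adaptor cell. Prf1, the pore-forming protein, was found in 40 cells and the receptor Klrb1c in 15, while Gzmb was found in 0 cells and Nkg7 in 3. Mast cell markers summed to 0 to 3 counts in adaptor cells, with 7 of 11 at 0, among them Cpa3 and Fcer1a. Kit and Gata2, the mast cell genes found most often, were in 18 and 6 of the 52 cells. Neutrophil markers summed to 0 to 10 counts, with 7 of 11 at 0, and platelet markers to 0 to 28, with 9 of 10 at 0. Csf3r and Mmp8 of neutrophils were found in 13 and 7 cells, and F13a1 and Gp6 of platelets in 9 and 5. The 28 were all from Pf4, a platelet and macrophage chemokine, in cell 27 of rat 2, the cell with 36 Tyrobp counts. T cell markers summed to 0 to 3 counts, with 8 of 10 at 0, and Cd3e and Cd8a were found in 7 and 4 cells.

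B cell markers summed to 4 to 28 counts in adaptor cells and 0 to 28 in the others. The transcription factor Ebf1 was found in 49 of 52 cells and the kinase Blk in 31. The antigen receptor chains Cd79a and Cd79b, which carry the ITAM of B cells, were found in 1 and 0 cells, and Ms4a1 in 1. Smooth muscle markers summed to 0 to 179 counts in adaptor cells, and Myocd gave 173 of the 179. Fibroblast markers summed to 0 to 582 there (0 to 709 in the others) and endothelial markers to 1 to 25. Mylk, Acta2, Col1a1, Fbln1, Kdr and Nos3, the pair found most often in each list, were in 39, 35, 33, 33, 36 and 28 cells. In the Fcgr3a-rich cells the ranges were 5 to 147, 2 to 709 and 4 to 19. The part of these cells in the counts of the 6 genes was not tested.

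The wider Fc and ITAM pathway was read from lists. Of all genes in the table, 20.7% were found in at least 10 cells and 27.4% reached 5 counts in at least 1 cell, and the median gene was found in 4 cells. Of 15 Fc receptor relatives, 2 were found in at least 10 cells, Fcgr3a and Pigr, the epithelial transporter of IgA, with at most 3 counts. Their median was 5 cells. Fcgrt, the neonatal Fc receptor that recycles IgG, was found in 5 cells and had 48 counts in cell 7 of rat 2, the cell richest in Fcer1g. Fcer1a, the IgE-binding chain that uses Fcer1g in mast cells, was found in 1 cell.

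None of the 9 ITAM and related adaptors was found in at least 10 cells, and Fcer1g and Tyrobp were the 2 that reached 5 counts. Hcst, the DAP10 adaptor encoded next to Tyrobp, was at 0 in all 52 cells, a result that still permits a share of 5.77% of cells with a count. Adaptor cells made up 11 of all 52 cells, the share to set beside each overlap below. Among T cell chains Cd3e was found in 7 cells and Cd247 in 5, with at most 3 counts, and no adaptor cell held either. A further list held receptors that signal through Tyrobp or Fcer1g together with relatives that may not. Of its 14 measured genes, 2 were found in at least 10 cells. Oscar, a collagen receptor that uses Fcer1g, was found in 13 cells, of which 1 had an adaptor. Clec5a, a Tyrobp partner, was found in 11, of which 1 had an adaptor. Clec4d, a lectin receptor, was found in 8, none with an adaptor. Trem2, the lipid-sensing Tyrobp partner of tissue macrophages, reached 8 counts and was found in 4 cells, of which 3 had an adaptor. With so few cells per gene, these overlaps were not tested and are no result on pairing.

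Of 12 Src-family and Tec kinases, which act upstream of Syk, 3 were found in at least 10 cells. The myeloid kinases Lyn and Fgr were found in 4 cells each, while the B lymphoid kinase Blk was found in 31 cells and the broadly expressed Fyn in 18. Zap70, the T cell relative of Syk, was found in 3. Downstream of Syk, 13 of 27 genes were found in at least 10 cells, led by the PI3-kinase subunit Pik3r1 in 35, the Ras pathway adaptor Shc1 in 20 and the phospholipase Plcg2 in 17. Pik3cg and Pik3cd, catalytic subunits of PI3-kinase enriched in leukocytes, were found in 17 and 12 cells. The haematopoietic members Vav1, Lcp2, Card9 and Blnk were found in 1, 3, 1 and 1 cells, and Rac2 in 5. Of 20 measured inhibitory receptors and phosphatases, 4 were found in at least 10 cells, Sirpa in 30, Ptpn11 in 26, Cd300lf in 16 and Cblb in 15. Ptpn6 and Inpp5d, the phosphatases of the Fcgr2b and other inhibitory routes in blood cells, were found in 6 cells each.

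Genes next to the members were read for reads that could spill over. RefSeq places Fcgr2b, Fcgr3a and Fcer1g on chromosome 13, Tyrobp on chromosome 1, Fcgr1a on chromosome 2 and Syk on chromosome 17. Fcrla, beside Fcgr2b, was found in 8 cells, of which 5 had Fcgr3a and 1 had Fcgr2b. Of the neighbours of Fcer1g, Apoa2 and Nr1i3 were found in 0 cells, and Tomm40l in 7 with 0 shared. Nfkbid, near Tyrobp, was found in 4 cells and shared none with it. Only Fcgr1a had a gene overlapping it among its 6 nearest RefSeq genes, an unnamed long non-coding RNA with no row in the table, so its reads could not be set apart.

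The genes whose levels followed each member most closely across the 52 cells were ranked by Pearson's r among 4358 named genes found in at least 10 cells, as a description. For Fcer1g they were Pltp (r = 0.75), a phospholipid transfer protein, Cst3 (0.74), cystatin C, and Acsl5 (0.68), an acyl-CoA synthetase. Pltp was found in all 6 Fcer1g cells and in 11 of all 52. For Tyrobp the closest were Rpl23a (0.58), a ribosomal protein, Fth1 (0.55), ferritin heavy chain, and Ctsb (0.50), cathepsin B. For Fcgr1a they were Lamp2 (0.58), a lysosomal membrane protein, Ak9 (0.54) and Aldoa (0.52). For Fcgr3a they were Stt3a (0.76), a subunit of the glycosylation enzyme, Cyp26b1 (0.68), a retinoic acid hydroxylase, and Prr12 (0.67). Stt3a was found in 33 of the 35 Fcgr3a cells and in 36 of all 52. For Syk the closest were Apaf1 (0.58), Orai3 (0.57) and Hdac9 (0.55), and for Fcgr2b Rev3l (0.50), Slc2a13 (0.47) and Slc2a10 (0.46). Without cell 4 of rat 1 these values were 0.42 to 0.76, and the lists overlapped with no gene in common among the 6 members. Levels of Fcgr3a and Syk also rose with the number of genes found in the cell (r = 0.49 and 0.39). The part of depth in these rankings was not tested.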

How the data were processed

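Single cells were cut by laser from aneurysm lesions and libraries were made with the SMART-Seq Single Cell Plus kit, per the labels' protocols. The authors deposited whole-number counts, by gene symbol and by cell, with no normalization visible in the values. The aligner, counting tool, genome build, annotation, strand setting and duplicate removal are not stated in the sources, so overlapping genes and close copies are uncertain. Each column was matched to its cell by title, with 0 left over, and an index sheet was not used.

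The members and lists were chosen with earlier results of these data known. Genes named beyond the 6 members follow a written rule: the 3 most often found genes of each pathway list, the 2 of each marker list, 3 genes most like each member, and relatives or neighbours. A few genes that the rule names are not reported here. Other list genes were chosen for their known role after values were seen.

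CPM used the column total and levels were log2(CPM + 1). Percent of cells found was taken within each rat and then over 3 rats. The labels give 1 group, so no edgeR test between groups was possible, and edgeR 4.0.16 (R 4.3.3) served for TMM scaling alone. The 6 receptor and adaptor pairs were compared by 2-sided exact sign-flip permutation with Benjamini-Hochberg adjustment. The ranking by r and the permutation code were tested on simulated data. Python 3.11.15, numpy 2.4.6, pandas 2.3.3, scipy 1.17.1 and matplotlib 3.10.9 were used.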

Additional observations from a re-analysis of the deposited data

How the results depend on the processing

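The leads of Fcgr3a over Fcer1g and Tyrobp kept the sign of their mean under all alternatives run, from 9.54 to 57.5 points, though at 5 or more counts rat 3 alone was above 0, and without 1 rat they ran from 39.6 to 57.5 points. Of the other 4 pairs, 3 changed sign under some alternative, and Fcgr1a minus Tyrobp was negative or 0 in all. At 5 or more counts Fcgr1a minus Fcer1g was -9.63 points, Fcgr1a minus Tyrobp -9.57 and Fcgr2b minus Tyrobp -6.61. Fcgr2b minus Fcer1g was -0.0604 points at 2 or more counts, -6.67 at 5 or more and -5.08 with cells thinned to 10000 counts (40 cells kept, 12 left out). Fcgr2b minus Tyrobp was 1.39 points without the 5 cells with fewer than 1000 genes. It was 0 without cell 39 of rat 3 and with each cell weighted equally, as was Fcgr1a minus Fcer1g. With each rat left out in turn, Fcgr1a minus Fcer1g ran from -4.35 to 4.17 points, Fcgr1a minus Tyrobp from -4.35 to 0, Fcgr2b minus Fcer1g from -2.17 to 6.25 and Fcgr2b minus Tyrobp from -2.17 to 2.08.

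At 5 or more counts 15 cells had a receptor, 7 an adaptor, 1 both and 14 a receptor without an adaptor. Thinned cells gave 5 with both. With each rat left out, cells with a receptor ran from 18 to 34, with an adaptor from 3 to 10, with both from 2 to 7 and with a receptor alone from 11 to 27, fewer cells being counted. Of the 18 genes most like the members, 10 stayed with genes found in at least 5 cells, 9 with genes found in at least 1 cell, 11 with a pseudocount of 10 and 9 with r of detection. Pooling Fcgr2a with Fcgr3a and leaving out the richest cell of a rat were added after seeing the data, and the pooling turned no sign. The causes were not tested. No paired analysis was possible because the labels give 1 group, so no groups share replicate numbers; receptor and adaptor were compared within rats. Depth limits any statement on a gene at 0 in a cell.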

Other observations

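Large counts of some other pathway genes sat in single cells, and these genes were chosen after their values were seen. Lyn, the Src-family kinase that phosphorylates ITAMs in myeloid cells, had 256 of its 261 counts in cell 34 of rat 3, which also had the most Fcgr1a, 7 counts. Clec4a2, a C-type lectin receptor of myeloid cells, had 69 of 75 counts in cell 20 of rat 2, beside 4 of Fcgr1a and 15 of Fcgr2b. Itpr1, the calcium channel opened downstream of Plcg2, had 142 of 196 in cell 42 of rat 3, beside 3 of Fcgr3a.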
